A study of Mus musculus with 12 samples.

Results

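The genes described here mark immune cells that live in or pass through heart muscle. The set holds 30 genes, chosen by symbol from the 24061 gene symbols listed for each library: Ptprc as a mark of all white blood cells, 11 macrophage genes, 3 antigen presentation genes, 6 B cell genes, 6 T cell genes and 3 neutrophil genes. RNA was sequenced from 12 heart samples of male mice of strain C57BL/6J, fed chow and between 2 and 4 months old. Of the samples, 6 were HKII+/- (heterozygous for hexokinase II, the enzyme encoded by Hk2) and 6 were HKII+/+ (wild type), and no other allele or treatment is given for either group. How the allele was made, and whether blood was flushed from the hearts, is not given in the sources used here. A submitter mark as potential outlier is on 1 library of each genotype (replicate 11 of HKII+/- and replicate 13 of HKII+/+), so values are given with them (12 libraries, 6 a genotype) and without them (10 libraries, 5 a genotype).

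Resident macrophages are the most numerous white blood cells of the healthy heart. They are maintained by signalling through the receptor encoded by Csf1r, take up dying cells and debris, and secrete complement C1q, whose 3 chains are encoded by neighbouring genes. A smaller population that expresses Ccr2 is replenished from blood monocytes. Macrophages and dendritic cells show peptides to T cells on MHC class II molecules, an α chain (H2-Aa) paired with a β chain (H2-Ab1) and guided through the cell by the invariant chain Cd74. B cells, T cells and neutrophils are fewer and are found mostly in vessels or at the heart's surface.

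Class II genes share promoter elements, and H2-Aa and its neighbour H2-Eb1, which encodes a further β chain, are shown because the class II genes kept nearly the same order across the unmarked libraries. The RefSeq sequence of GRCm38.p6 is given for the 250 bases before each gene's start, 5′ to 3′ on the gene's strand. The H2-Aa window is chr17:34287824-34288073 (minus strand) and the H2-Eb1 window chr17:34305617-34305866 (plus strand). Capitals mark CTGATTGG, the Y box, an inverted CCAAT element.
H2-Aa: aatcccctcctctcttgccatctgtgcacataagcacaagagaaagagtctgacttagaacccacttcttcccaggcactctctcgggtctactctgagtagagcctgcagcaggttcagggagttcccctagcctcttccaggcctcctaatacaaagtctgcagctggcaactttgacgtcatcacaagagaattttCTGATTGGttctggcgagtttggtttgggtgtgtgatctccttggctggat
H2-Eb1: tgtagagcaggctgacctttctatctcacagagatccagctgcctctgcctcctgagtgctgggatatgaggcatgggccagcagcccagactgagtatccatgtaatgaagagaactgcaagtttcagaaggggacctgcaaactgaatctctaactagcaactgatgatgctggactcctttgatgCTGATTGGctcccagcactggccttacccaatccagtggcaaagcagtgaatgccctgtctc
The element starts 51 bases upstream of H2-Aa and 62 bases upstream of H2-Eb1. Searched on both strands, it was present in 1258 of 32851 windows of this length (3.83%). It was present in 4 of the 16 antigen presentation and dendritic cell genes examined, which are H2-Aa, H2-Eb1, H2-Oa (46 bases upstream) and Irf8 (124 bases). The first share counts windows and the second counts genes, and a further Irf8 window lacked the element. Class II genes among the 16 without this exact match were H2-DMa, H2-DMb1, H2-DMb2 and H2-Ob. H2-Ab1 and Cd74 are not among the 16. A match describes these letters and does not show that a factor binds. The part of the element in the order of the libraries was not tested.

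Counts summed to between 17263209 and 51556592 per library. Of the symbols, 14107 passed the filter on low counts with 12 libraries and 14139 with 10. Levels are counts per 1000000 counts of the library (CPM), with the library total adjusted by edgeR's TMM factor. That factor was 0.787 and 0.760 in the marked libraries and 0.992 to 1.09 in the other 10. Hk2 is the gene targeted in the study. It measured 256 to 354 CPM in the 5 unmarked HKII+/- libraries and 471 to 542.5 CPM in the unmarked HKII+/+ libraries. Both marked libraries lay above every unmarked one, at 568.2 CPM in the library labelled HKII+/- replicate 11 and 652.6 CPM in HKII+/+ replicate 13. Replicate 11 was thus outside the range of the other libraries with its label. Whether its label is right was not tested, and every 12-library comparison below includes it. The summed level of 7 cardiomyocyte genes was 72190 to 94930 CPM in the unmarked libraries, and 187700 and 201400 CPM in the marked ones.

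Of the 30 members, 22 passed the filter on low counts. The 8 that did not were the B cell genes Ms4a1 and Pax5, the T cell genes Cd3e, Cd3d, Cd3g and Cd8a, and the neutrophil genes S100a8 and S100a9. Members are listed under their own symbol except Adgre1, which the files list under its older symbol Emr1. Per kilobase of annotated exon, the median unmarked library was highest for Lyz2 (91.2 CPM per kb), Cd74 (69.1), C1qa (39.2) and C1qb (30.9). On the same scale Ptprc measured 0.505, Cd4 0.239 and Cd3e 0.0351 CPM per kb. Macrophage and antigen presentation genes were all measured well enough to be tested, and the 8 members that were not are lymphocyte and neutrophil genes. In whole tissue, fewer cells of a type and less RNA per cell cannot be told apart.

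Within a genotype, 9 of the 22 tested members had a library that stood apart by Dixon's ratio (its gap to the nearest other library over the range of the 6), and 64.3% of all tested genes did.

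**Figure D1:**
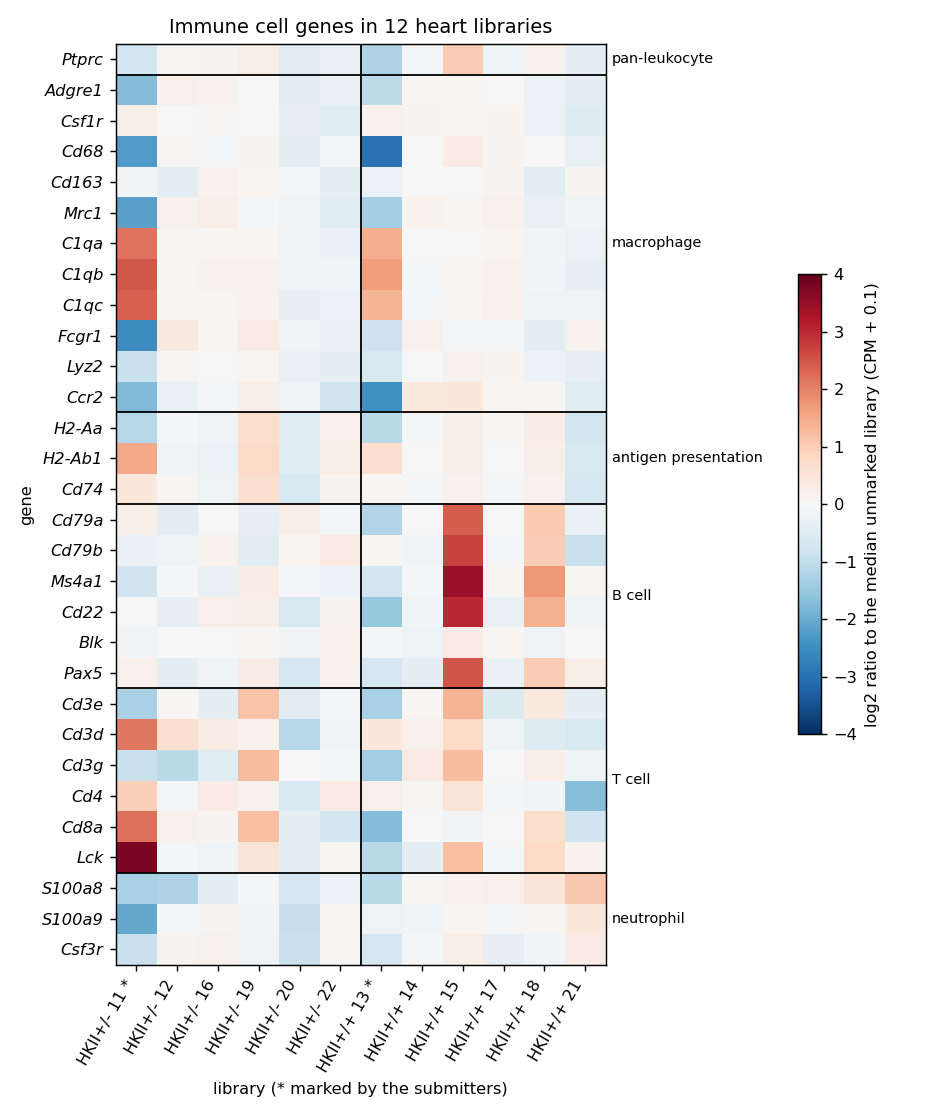
Level of each of the 30 genes (rows, by class) in each library (columns), as the log2 ratio of CPM + 0.1 to the median of the 10 unmarked libraries. Macrophage genes were even across the unmarked libraries, B cell genes other than Blk were highest in HKII+/+ replicate 15, and the marked libraries (asterisks) held high C1q genes beside low Cd68, Mrc1 and Ccr2.

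No member passed the test between the genotypes. In edgeR's quasi-likelihood test with Benjamini-Hochberg adjustment over all genes, 0 of 22 members passed an adjusted p of 0.05 with 12 libraries, where the share of all tested genes called was 0.0%, and 0 of 22 with 10 libraries, where it was 0.00707% (1 gene). At an unadjusted p below 0.05 the counts were 0 of 22 members with 12 libraries (0.262% of all genes) and 2 of 22 with 10 libraries (2.8% of all genes). These 2 were the B cell genes Cd79a and Cd22, both lower in HKII+/- hearts. DESeq2 called 0 of the 18 members to which it gave a p with 12 libraries (it gave none for C1qa, C1qb, C1qc and Lck) and 0 of 22 with 10, with 1 (Cd22) and 3 (Cd22, Cd79a and Cd79b) at an unadjusted p below 0.05. Limma voom called 0 members, with 0 at an unadjusted p below 0.05 in either set, and gave Cd22 a log2 fold change of -0.99 (unadjusted p = 0.179) and Cd79a one of -0.88 (0.126) with 10 libraries. No member was called in any of 38 fits, which include other tools, scalings and filters and fits with libraries left out, and the lowest adjusted p of any member was 0.888. None of the 30 members separated the genotypes without overlap with 12 libraries (0.0213% of all tested genes did). With 10 libraries none of the 22 tested members did (0.474% of all tested genes did). The only 1 of the 30 that did was S100a8, which did not pass the filter, on counts of 2 to 14 per library.

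The median log2 fold change of the tested members, HKII+/- over HKII+/+, was -0.02 with 12 libraries and -0.04 with 10, beside -0.001 and -0.005 over all genes tested. With 12 libraries 9 members were higher and 13 lower in HKII+/- hearts, and with 10 libraries 7 were higher and 15 lower. By class, the medians with 12 and 10 libraries were -0.02 and -0.03 for macrophage genes, 0.15 and 0.10 for antigen presentation genes, -1.08 and -1.27 for B cell genes, and 0.89 and -0.19 for T cell genes. The B cell and T cell medians rest on 1 or 2 libraries: without HKII+/+ replicates 15 and 18 the 10-library B cell median was 0.09, and without HKII+/- replicate 11 the 12-library T cell median was -0.12.

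**Figure D2:**
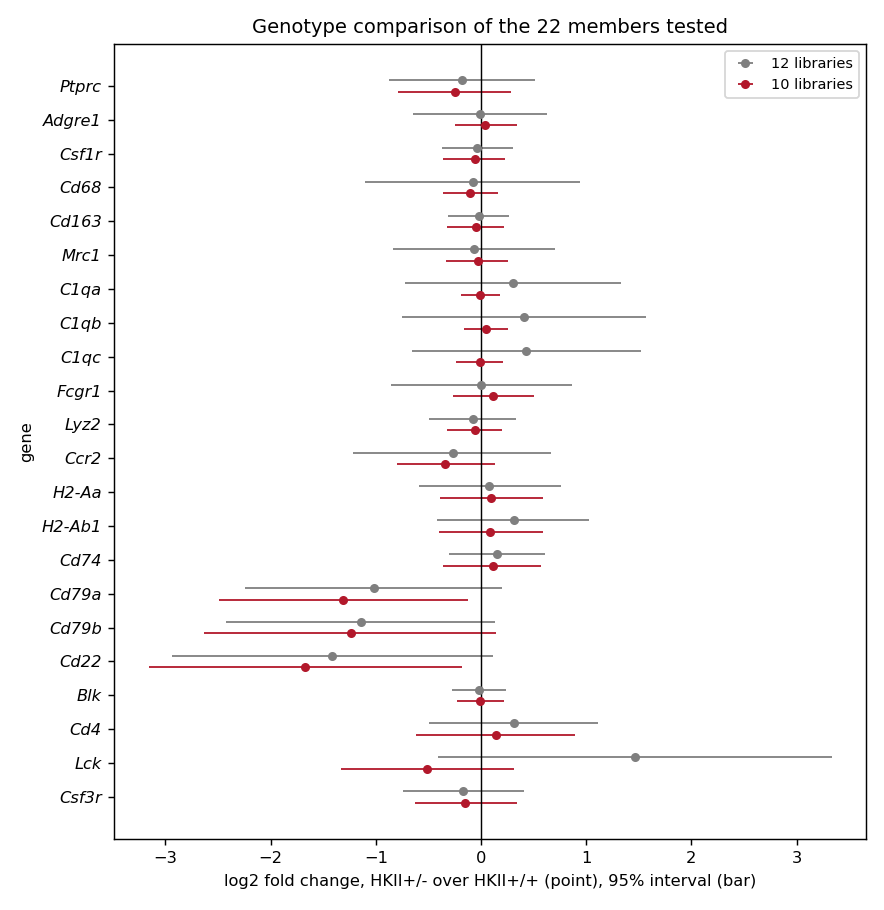
Log2 fold change of each tested member, HKII+/- over HKII+/+, from edgeR (points) with its 95% interval (bars), with 12 libraries (grey) and without the marked libraries (red). C1qa, C1qb and C1qc had wide intervals with 12 libraries that narrowed to within 0.26 of 0 on the log2 scale with 10, and Cd79a and Cd22 were the 2 members whose interval with 10 libraries excluded 0.

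Ptprc encodes CD45, a phosphatase on the surface of all white blood cells. In HKII+/- replicates 11, 12, 16, 19, 20 and 22, the order used for this genotype throughout, it measured 5.53, 9.8, 10.1, 10.9, 6.78 and 7.51 CPM. In HKII+/+ replicates 13, 14, 15, 17, 18 and 21, likewise the order used throughout, it measured 3.87, 8.71, 18.9, 8.11, 10.2 and 7.2 CPM. HKII+/+ replicate 15 was the highest library, at 2.42 times the median of the 10 libraries other than replicates 15 and 18 of this genotype, and the genotypes overlapped. The log2 fold change was -0.18 (95% interval -0.87 to 0.51) with 12 libraries and -0.25 (-0.79 to 0.29) with 10.

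Macrophage genes were the most even of the classes across the unmarked hearts. Their summed level ranged from 296 to 406 CPM over the 10 unmarked libraries, a coefficient of variation of 12.1%. The median coefficient of variation of the 11 members was 14.6%, beside 9.88% over all genes tested. Lyz2, the lysozyme of macrophages and other myeloid cells and the member with the most counts, measured 64.6, 125, 119, 126, 97.2 and 91.4 CPM in HKII+/- and 76.1, 121, 136, 128, 101 and 95.6 CPM in HKII+/+ libraries. Its log2 fold change with 10 libraries was -0.06 (95% interval -0.32 to 0.20). The genotypes overlapped.

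The 3 chains of C1q, which starts the classical complement pathway, are encoded within 18675 bp on chromosome 4 of GRCm38. C1qa (ENSMUSG00000036887.5, minus strand, 136895917 to 136898803) measured 185, 41.8, 42.7, 43.3, 35.4 and 33.8 CPM in HKII+/- and 112, 41.4, 40.1, 43.4, 38 and 34.8 CPM in HKII+/+ libraries. C1qb measured 189, 34.6, 37.5, 37.4, 29.3 and 31.3 CPM and 107, 32.7, 35.8, 37.4, 31.2 and 26.8 CPM. C1qc measured 195, 38.3, 39.1, 41.5, 29.9 and 31.7 CPM and 96.7, 36.4, 38.2, 42.3, 32.3 and 32.3 CPM. The marked library of each genotype was the highest for all 3 genes, and the remaining libraries lay close together. Without the marked libraries the mean of C1qa was 39.4 ± 4.46 CPM for HKII+/- against 39.5 ± 3.30 CPM for HKII+/+ (SD, n = 5 each). For C1qa, C1qb and C1qc the log2 fold changes were then -0.01 (95% interval -0.19 to 0.18), 0.05 (-0.16 to 0.26) and -0.01 (-0.24 to 0.21). With all 12 libraries they were 0.30 (-0.72 to 1.33), 0.41 (-0.75 to 1.57) and 0.43 (-0.66 to 1.52), and leaving out HKII+/- replicate 11 alone brought them to -0.39, -0.41 and -0.36.

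Cd68, a lysosomal protein of phagocytes, was low in the marked libraries. It measured 1.23, 6.53, 5.99, 6.78, 4.93 and 6.12 CPM in HKII+/- and 0.721, 6.21, 7.88, 6.86, 6.4 and 5.15 CPM in HKII+/+ libraries, so that each marked library was the lowest of its genotype. The scavenger receptors Cd163 (25.4 to 38.6 CPM over the unmarked libraries) and Mrc1 (22.6 to 37.8 CPM), the growth factor receptor Csf1r (37.8 to 58.9 CPM) and the surface protein Adgre1 (9.54 to 14.7 CPM) had coefficients of variation of 14.6% to 16.1% over the unmarked hearts. Part of the Csf1r exons (873 bp) overlaps Hmgxb3 on the other strand, and the strand setting of the counting is not given in the sources used here. Fcgr1, an immunoglobulin receptor, measured 1.38 to 2.52 CPM. Ccr2, the receptor that draws monocytes out of the blood, measured 1.66 to 3.98 CPM and had the largest change of the class with 10 libraries, a log2 fold change of -0.34 (95% interval -0.80 to 0.13), which did not pass the test (unadjusted p = 0.139, edgeR quasi-likelihood).

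Of 25 further macrophage and monocyte genes, 22 were tested, 0 were called in either fit, and their median log2 fold change was 0.01 with 12 libraries and -0.02 with 10. Their summed level was 227 to 310 CPM in the unmarked libraries. Cbr2, a reductase of some tissue macrophages and of airway cells, was 139 CPM in HKII+/- replicate 11 and at most 20.8 CPM elsewhere. The chemokine receptor Cx3cr1 was 13.9 CPM there and at most 6.03 CPM elsewhere. Of the 25 genes, 6 were highest in that library and others were lowest in it. Among the latter were Mpeg1 (1.79 CPM, at least 2.82 CPM elsewhere), Folr2 (2.64 CPM, at least 4.46 CPM elsewhere) and Msr1 (0.893 CPM, at least 0.984 CPM elsewhere). Plac8 had 1.66 CPM in HKII+/+ replicate 15, 6.08 times the median library.

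In the marked libraries the macrophage genes split. C1qa, C1qb and C1qc were 4.53, 5.61 and 5.23 times the median unmarked library in HKII+/- replicate 11 and 2.75, 3.18 and 2.59 times in HKII+/+ replicate 13. Cd68 was at 0.196 and 0.114 of that median, Mrc1 at 0.221 and 0.390, Adgre1 at 0.298 and 0.475, and Ccr2 at 0.273 and 0.155. The ratio of C1qb to Mrc1 was 0.945 to 1.38 in every unmarked library but 27.1 in HKII+/- replicate 11 and 8.69 in HKII+/+ replicate 13. Of the 22 tested members, 3 were at least 2-fold higher in both marked libraries (13% of all tested genes were) and 5 at least 2-fold lower, the fifth being H2-Aa (20.2% of all tested genes were). The members' counts were thus near these shares, and 19 of the 22 members deviated in the same direction in both marked libraries.

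The split followed GC content among the members as it did among all genes. The 3 higher members have transcripts of 57.4% to 59.5% GC and the 5 lower members of 39.4% to 52.9%, beside a median of 49.9% over all tested genes. Across the 14004 tested genes with a GC value, the Spearman rho of GC content with the log2 ratio to the median unmarked library was 0.62 in HKII+/- replicate 11 and 0.64 in HKII+/+ replicate 13, and between -0.38 and 0.21 in the unmarked libraries. Across the 22 tested members it was 0.76 and 0.68. These are descriptions across genes of the same libraries, which are not independent. Cd68, at 52.9% GC, lay lower in both libraries than Cd22 (52.1%) and Cd4 (52.03%), and Fcgr1 (51.6%) was at 0.132 of the median unmarked library in replicate 11. The part of GC content in these levels was not tested.

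**Figure D3:**
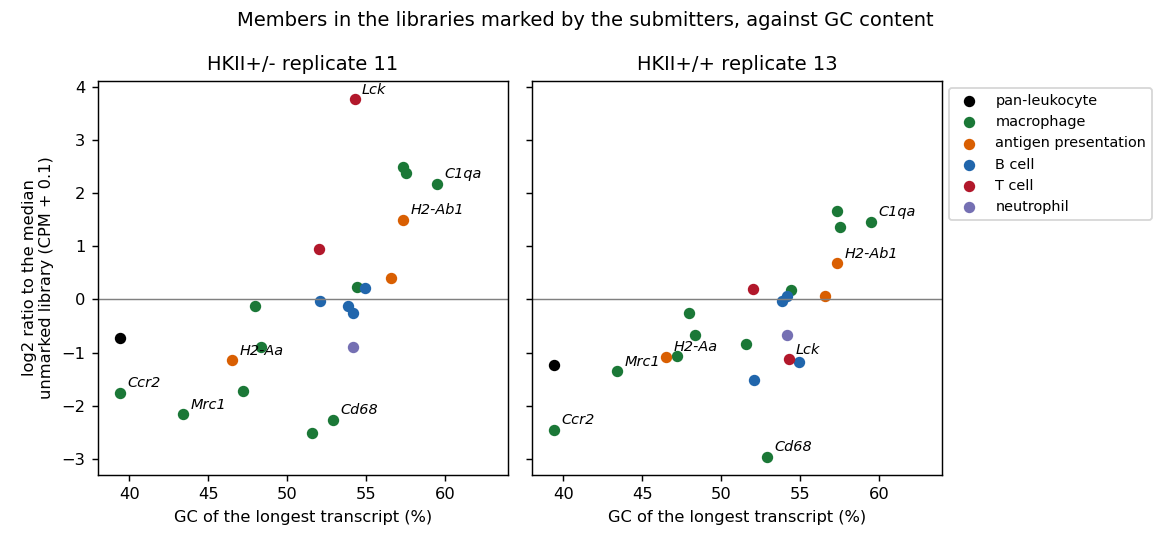
Log2 ratio of each tested member in HKII+/- replicate 11 (left) and HKII+/+ replicate 13 (right) to the median unmarked library (CPM + 0.1), against the GC content of its longest transcript, coloured by class. C1q genes and H2-Ab1 lay above 0 and Ccr2, Mrc1, H2-Aa and Cd68 below 0 in both libraries, while Lck was high in replicate 11 only.

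Antigen presentation genes varied together across the unmarked hearts of both genotypes. Cd74 measured 154, 119, 100.1, 183, 76.1 and 124 CPM in HKII+/- and 121, 110.0, 131, 114, 130.5 and 73.2 CPM in HKII+/+ libraries. HKII+/- replicate 19 was the highest of the 12 libraries and HKII+/+ replicate 21 the lowest. H2-Aa measured 20.1, 43.1, 39.5, 72.9, 31.5 and 51.6 CPM in HKII+/- and 21.1, 42.9, 52.1, 46, 55.1 and 26.8 CPM in HKII+/+ libraries. H2-Ab1, whose gene ends 13324 bp from H2-Aa on chromosome 17, measured 131, 42.8, 39.2, 79, 33.1 and 54.1 CPM and 74, 45.7, 54.8, 46.8, 55.4 and 29.6 CPM.

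For Cd74, H2-Aa, H2-Ab1 and the further β chain H2-Eb1, HKII+/- replicate 19 ranked highest and HKII+/- replicate 20 and HKII+/+ replicate 21 lowest among the 10 unmarked libraries. In replicate 19 these genes were 1.61, 1.69, 1.73 and 1.67 times the median of the other 9 unmarked libraries. It was the highest of the 10 for 3 of 22 tested members, these 3, and for 9.82% of all tested genes. The genotypes overlapped, and the log2 fold changes with 10 libraries were 0.11 (95% interval -0.36 to 0.57) for Cd74, 0.10 (-0.39 to 0.59) for H2-Aa and 0.09 (-0.40 to 0.59) for H2-Ab1. Ciita, which encodes the master activator of class II transcription, was 6.44 CPM in replicate 19 and 3.45 to 6.43 CPM in the other 9. Of 18 further antigen presentation and dendritic cell genes, 14 were tested and 0 called in either fit, with a median log2 fold change of 0.09 and 0.05.

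Of the 6 T cell members in that library, Cd8a (14 counts, 0.678 CPM against at most 0.441 CPM in the other 9) was the highest of the unmarked libraries. Cd3g (11 counts, 0.533 CPM) was level with HKII+/+ replicate 15 (0.527 CPM), Cd3e (9 counts, 0.436 CPM) was second to that library and Lck (0.630 CPM) lay below HKII+/+ replicates 15 and 18. Cd3d (0.145 CPM) and Cd4 (1.07 CPM) lay in the middle of the unmarked libraries. Genes of the atrium summed to 316 CPM in replicate 19 and 432 CPM in HKII+/- replicate 22, against 2361 to 6835 CPM in the other 8, and the part of that in these levels was not tested.

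**Figure D4:**
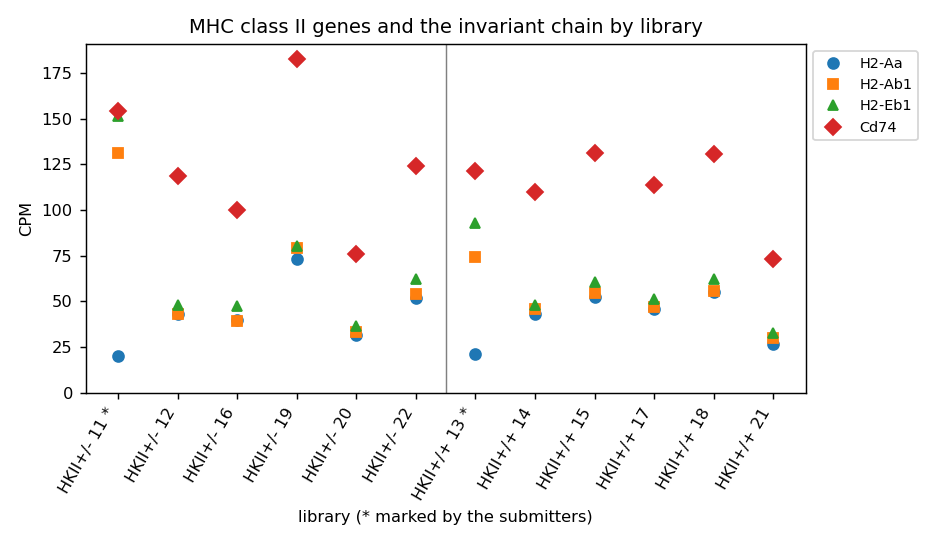
Level of H2-Aa, H2-Ab1, H2-Eb1 and Cd74 in each library, in CPM. In the unmarked libraries the 4 genes kept nearly the same order, from HKII+/+ replicate 21 to HKII+/- replicate 19, and in the marked libraries (asterisks) H2-Aa lay far below H2-Ab1.

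In the marked libraries the α and β chains parted. H2-Ab1 was 0.991 to 1.11 times H2-Aa in each unmarked library, 6.53 times in HKII+/- replicate 11 and 3.52 times in HKII+/+ replicate 13. H2-Aa was at 0.451 and 0.472 of the median unmarked library there, while H2-Ab1 was 2.84 and 1.60 times it. The longest H2-Ab1 transcript has 57.3% GC and that of H2-Aa 46.5%. With 12 libraries the log2 fold change of H2-Ab1 was 0.31 (95% interval -0.42 to 1.03).

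B cell genes other than Blk were concentrated in HKII+/+ replicate 15 and, less, HKII+/+ replicate 18, neither of which carries a submitter mark. Cd79a, a signalling chain of the B cell receptor, measured 0.68, 0.399, 0.568, 0.436, 0.682 and 0.547 CPM in HKII+/- and 0.197, 0.569, 3.48, 0.574, 1.27 and 0.455 CPM in HKII+/+ libraries. Its partner chain Cd79b measured 0.553, 0.574, 0.787, 0.484, 0.722 and 0.88 CPM and 0.721, 0.621, 5.03, 0.642, 1.43 and 0.319 CPM. Replicate 15 stood above all other libraries for both chains, with 132 and 191 counts.

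Ms4a1, which encodes CD20, measured 0.128, 0.274, 0.218, 0.388, 0.281 and 0.235 CPM in HKII+/- and 0.131, 0.284, 4.11, 0.304, 1.21 and 0.319 CPM in HKII+/+ libraries. Cd22, an inhibitory receptor of B cells, measured 0.553, 0.424, 0.655, 0.678, 0.321 and 0.606 CPM and 0.131, 0.517, 5.22, 0.439, 1.66 and 0.501 CPM. Pax5, the transcription factor that fixes B cell identity, measured 0.0851, 0.0249, 0.0437, 0.0969, 0 and 0.0782 CPM and 0, 0.0259, 0.817, 0.0338, 0.221 and 0.0911 CPM, on 31 counts in replicate 15, 4 in replicate 18 and 0 to 4 elsewhere. In all 3 replicate 15 was the highest library and replicate 18 the next. Some exon sequence of Cd22 (479 bp) and Pax5 (761 bp) overlaps genes on the other strand.

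Summed over these 5 genes, replicate 15 held 18.7 CPM and replicate 18 5.79 CPM, against 1.18 to 2.35 CPM (median 2.00) in the other 10 libraries, that is 9.32 and 2.89 times the median. Of the 22 tested members, 5 (Ptprc, Cd79a, Cd79b, Cd22 and Lck) were at least 2-fold over the median unmarked library in replicate 15, where 0.573% of all tested genes were. Cd79a had a log2 fold change of -1.31 (SE 0.54, unadjusted p = 0.0336, edgeR adjusted p = 1.0) with 10 libraries and Cd22 one of -1.67 (SE 0.68, unadjusted p = 0.0309, edgeR adjusted p = 1.0). Without replicate 15 these were -0.40 (unadjusted p = 0.234, edgeR) and -0.46 (0.297), and without replicates 15 and 18 they were -0.04 and 0.13. The lower level of B cell genes in HKII+/- hearts thus rested on those HKII+/+ libraries. Outside them the 5-gene sum lay between 1.70 and 2.35 CPM for HKII+/- and between 1.18 and 2.02 CPM for HKII+/+.

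**Figure D5:**
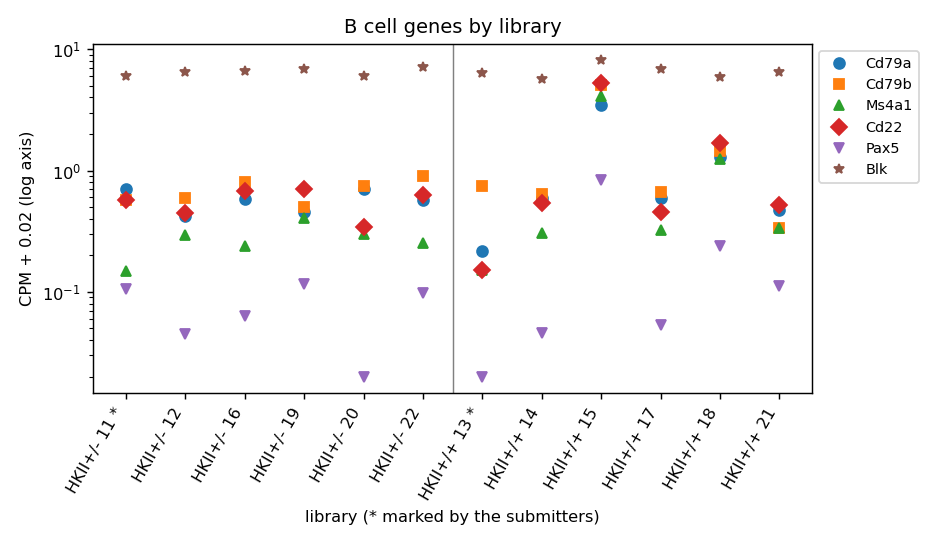
Level of the 6 B cell genes in each library, as CPM + 0.02 on a log axis. Cd79a, Cd79b, Ms4a1, Cd22 and Pax5 were highest in HKII+/+ replicate 15 and next highest in HKII+/+ replicate 18, while Blk stayed between 5.69 and 8.14 CPM in all 12 libraries.

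Blk, a kinase of the Src family used downstream of the B cell receptor, did not follow the others. It measured 6, 6.46, 6.55, 6.78, 5.97 and 7.14 CPM in HKII+/- and 6.36, 5.69, 8.14, 6.86, 5.85 and 6.47 CPM in HKII+/+ libraries, a coefficient of variation of 10.8% over the unmarked libraries against 105% to 171% for the other 5. Per kilobase of exon its median was 2.41 CPM, against at most 0.476 for the others. It was the member with the most counts of its class, and in replicate 18 it was at 0.905 of the median of the 10 libraries besides replicates 15 and 18. Its log2 fold change was -0.01 (95% interval -0.23 to 0.22) with 10 libraries.

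Further B cell genes gave the same library. Of 17 listed, 15 were highest in HKII+/+ replicate 15 of the 12 libraries, 9 were tested and 0 called in either fit, and their sum was 59.7 CPM there against 17.1 to 32.7 CPM elsewhere. The largest ratios to the median library were those of the complement receptor Cr2 (100 counts, 23.8 times), the survival receptor Tnfrsf13c (52 counts, 20.6 times) and the transcription coactivator Pou2af1 (137 counts, 14.1 times). Cd37, a tetraspanin, had a log2 fold change of -0.67 with 10 libraries (unadjusted p = 0.0402, edgeR adjusted p = 1.0). Among 5 plasma cell genes, Jchain, which joins secreted antibody units, was 12.6 CPM in replicate 15 and 4.19 CPM in replicate 18 and at most 1.84 CPM elsewhere, with a log2 fold change of -2.31 with 10 libraries (unadjusted p = 0.0400, edgeR adjusted p = 1.0). Mzb1 and Derl3, of antibody-secreting cells, were 2.4 and 2.03 times the median library in replicate 15. The remaining plasma cell genes were highest elsewhere. Prdm1 was 5.09 CPM in replicate 15 and 5.46 CPM in HKII+/- replicate 12. Tnfrsf17 was 0.132 CPM in replicate 15 and 0.175 CPM in HKII+/- replicate 16.

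The T cell genes of HKII+/+ replicate 15 summed to 4.06 CPM against 1.05 to 3.49 CPM in the other unmarked libraries. Cd4 (1.45 CPM) and Lck (1.05 CPM) made up most of that sum, Cd3e and Cd3g were 5.91 and 3.6 times the median of the 10 libraries besides replicates 15 and 18, and Cd8a (0.211 CPM) was at 0.899 of it. Markers of lymph node stroma summed to 11.8 CPM there and 1.58 to 7.58 CPM elsewhere, with 2 of 6 genes highest in it. Of these, Cxcl13, a chemokine that draws B cells, was 6.46 CPM (245 counts). Glycam1 had 5 counts there and 0 in every other library, Ccl21a was listed at 0 in all 12 and Madcam1 at 0 in replicate 15. Alas2, an enzyme of developing red blood cells, was 26.1 CPM, inside the 14.1 to 30.04 CPM of the other libraries, and 6 globin symbols were listed at 0 in all 12. The part of lymph node tissue or blood in the B cell levels was not tested.

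T cell genes were low in every heart except in the library labelled HKII+/- replicate 11, where some but not all were high. Lck, the kinase that starts T cell receptor signalling, measured 6.72, 0.374, 0.35, 0.63, 0.281 and 0.43 CPM in HKII+/- and 0.131, 0.284, 1.05, 0.371, 0.772 and 0.455 CPM in HKII+/+ libraries. Replicate 11 held 158 counts and no other library more than 40. The log2 fold change of Lck was 1.46 (95% interval -0.41 to 3.34) with 12 libraries, -0.35 without replicate 11 and -0.51 (-1.33 to 0.31) without both marked libraries, so its direction turned with that library.

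Cd4, the co-receptor of helper T cells, also carried by some macrophages, had the most counts of the class. It measured 1.96, 0.923, 1.22, 1.07, 0.601 and 1.23 CPM in HKII+/- and 1.11, 1.01, 1.45, 0.912, 0.883 and 0.228 CPM in HKII+/+ libraries, and the genotypes overlapped. Cd8a, the co-receptor of cytotoxic T cells, was 1.45 CPM (34 counts) in replicate 11 and at most 0.678 CPM elsewhere.

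The chains of the CD3 complex, through which the T cell receptor signals, lie within 40056 bp on chromosome 9 and diverged in that library. Cd3d measured 0.851, 0.249, 0.175, 0.145, 0 and 0.0978 CPM in HKII+/- and 0.197, 0.155, 0.29, 0.101, 0.0552 and 0.0455 CPM in HKII+/+ libraries, highest in replicate 11 on 20 counts. Cd3e measured 0, 0.15, 0.0874, 0.436, 0.0802 and 0.137 CPM and 0, 0.155, 0.527, 0.0675, 0.221 and 0.0911 CPM. Cd3g measured 0.0425, 0.0249, 0.0874, 0.533, 0.16 and 0.156 CPM and 0, 0.233, 0.527, 0.169, 0.221 and 0.137 CPM. In replicate 11 Cd3e had 0 counts, which allows a level of up to 0.128 CPM (3 counts), and Cd3g had 1 count, whereas HKII+/+ replicate 15 had 20 counts of each. Cd3d has 50.03% GC, Cd3e 44.5% and Cd3g 38.5%, and Lck has 54.3%. These limits cover counting error only.

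Of 19 further T cell genes listed, 10 were tested with 12 libraries and 9 with 10, 0 were called, and the median log2 fold changes were -0.08 and -0.12. In HKII+/- replicate 11 the adaptor Lat was 8.76 CPM (206 counts) against at most 0.975 CPM elsewhere, Zap70, the kinase that follows Lck, was 2.13 CPM against at most 0.791, and Cd8b1 was 1.15 CPM against at most 0.221. In HKII+/+ replicate 15 the cytokine receptor Il7r was 5.82 times the median library. Rag1 and Dntt, which act in the assembly of receptor genes in immature lymphocytes, were 1.70 CPM (40 counts) and 1.32 CPM (31 counts) in replicate 11 and at most 0.630 and 0.145 CPM elsewhere. The list of 9 thymus genes they belong to summed to 4.89 CPM in that library against 0.865 to 1.79 CPM in the others, with 5 genes highest in it. Of these 5, Themis, Prss16 and Psmb11 had only 4, 6 and 2 counts there. Ccl25 (1.32 CPM) and Ptcra (0.0425 CPM) lay inside the range of the other libraries, and Rag2 and Foxn1 were at 0 CPM.

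Genes of other tissues were also high in HKII+/- replicate 11. A list of 9 airway and alveolar genes summed to 290 CPM there (7 genes highest in it) and 0.313 to 1.78 CPM in the other 11 libraries. Fat genes summed to 2206 against 461 to 775 CPM. Fibroblast and vessel wall genes summed to 12820 CPM, against 3707 CPM in the marked HKII+/+ replicate 13 and 896 to 1667 CPM in the unmarked libraries. That list was not high as a whole. Col1a1, Col3a1, Eln and Myh11 were highest in replicate 11, while Dcn (78.0 CPM) and Pdgfra (33.2 CPM) were lowest there. The T cell sum was 5.22 times the median library and the macrophage sum, 741 CPM, 1.90 times. The part of these tissues in the immune gene levels of that library was not tested.

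Of the 3 neutrophil genes, S100a8 and S100a9 were near the limit of detection in all hearts, and Csf3r had 14 to 79 counts per library. Csf3r, the receptor for granulocyte colony stimulating factor, measured 0.766, 1.62, 1.7, 1.36, 0.762 and 1.54 CPM in HKII+/- and 0.918, 1.47, 1.84, 1.18, 1.38 and 1.91 CPM in HKII+/+ libraries. Its log2 fold change was -0.15 (95% interval -0.63 to 0.34) with 10 libraries. S100a8 and S100a9, the calcium-binding proteins that fill neutrophil cytoplasm, did not exceed 0.638 and 0.455 CPM in any library. S100a8 was lower in each unmarked HKII+/- library (0.0499 to 0.242 CPM) than in each unmarked HKII+/+ library (0.259 to 0.638 CPM). It did not pass the filter, and HKII+/+ replicate 13, at 0.0656 CPM, lay within the HKII+/- range.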

How the data were processed

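RNA from 12 heart samples was sequenced after poly(A) capture as single-end reads of 100 nt, per the labels' protocols. Tools named in the submitters' processing notes are STAR 2.4.0 and featureCounts 1.4.4, with mm10 (GRCm38) as the genome. The authors deposited raw counts of reads per gene symbol, as whole numbers without normalisation. Neither the strand setting nor the annotation release is given in the sources used here. Nothing beyond separate titles says that libraries are separate animals, so p-values measure the spread between these samples, which may be technical. No 2 libraries of a genotype agreed within sampling noise (lowest chi-square per degree of freedom 7.03).

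Genotypes were compared with edgeR 4.0.16 (glmQLFit, glmQLFTest, two-sided, TMM, filterByExpr with minimum count 10, Benjamini-Hochberg at 0.05 over all tested genes) in R 4.3.3, on 12 libraries and on the 10 unmarked ones, after a test on simulated data. The 95% intervals use the fitted standard error. CPM use TMM-adjusted totals; log2 ratios add 0.1 CPM. Depth, 17263209 to 51556592 counts per library, puts 3 counts at 0.0587 to 0.197 CPM. A library stood apart in a genotype of 6 when Dixon's ratio passed its 95% value. Coordinates, exon lengths and transcript GC content came from GENCODE vM21 of GRCm38 and promoters from RefSeq.

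Values in every library are given for the member of each class with the most counts and for members at unadjusted p below 0.05 or with a library apart. H2-Aa and H2-Ab1 were added after their values were seen, as were the values of Cd8a in single libraries. Genes of 20 further lists (190 of 195 listed) are named if at unadjusted p below 0.05 or if highest in a library that stands apart. Of the genes so named, 1 is not reported here. The members and lists were chosen with earlier results of these data known. Alternatives were RLE factors, library totals, other filters, DESeq2 1.42.0, limma 3.58.1 voom with and without quality weights, and leaving out libraries; leaving out HKII+/+ replicates 15 and 18 was chosen after seeing the data.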

Additional observations from a re-analysis of the deposited data

Results flagged for a closer look

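Among 6 libraries of a genotype, a library was looked at again when its gap to the nearest other library, relative to the range, passed Dixon's 95% value. Chance flags about 1 in 20 such groups. Of 70 groups (the members and the class sums in each genotype), 20 were picked out, 11 of them in the marked libraries, 6 in HKII+/+ replicate 15 and 3 elsewhere. Among all tested genes 64.3% had such a library in either genotype, and 9 of the 22 tested members did.

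In HKII+/- replicate 11, C1qa (185 CPM), C1qb (189 CPM), C1qc (195 CPM), Cd3d (0.851 CPM) and Lck (6.72 CPM) stood above the other 5 libraries, as did the macrophage sum (741 CPM) and the T cell sum (11.02 CPM), and Cd68 (1.23 CPM) stood below them. In HKII+/+ replicate 13, C1qa (112 CPM), C1qb (107 CPM) and C1qc (96.7 CPM) stood above.

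In HKII+/+ replicate 15, Cd79a (3.48 CPM), Cd79b (5.03 CPM), Ms4a1 (4.11 CPM), Cd22 (5.22 CPM), Pax5 (0.817 CPM) and the B cell sum (26.8 CPM) stood above the other libraries of the genotype. In HKII+/- replicate 19, Cd3e (0.436 CPM) and Cd3g (0.533 CPM) stood above. Cd74 (73.2 CPM) stood below the others in HKII+/+ replicate 21.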

How the results depend on the processing

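No paired analysis was possible because no replicate number is shared by HKII+/- and HKII+/+. The count of called members was 0 in all 38 distinct fits, with 4 members given no p by DESeq2 on 12 libraries. Limma voom gave smaller medians for B cell genes (-0.55 with 12 libraries, -0.74 with 10) and T cell genes (0.41 and -0.06). Members with a log2 fold change near 0, or set by 1 library, changed sign, and values below are log2 fold changes unless said otherwise. Leaving out 1 of 12 libraries moved the median of B cell genes between -1.26 and -0.15 and that of T cell genes between -0.12 and 1.16, and gave Ptprc -0.32 to 0.14, Adgre1 -0.12 to 0.17, Csf1r -0.12 to 0.04, Cd68 -0.29 to 0.13, Cd163 -0.08 to 0.03, Mrc1 -0.22 to 0.13, C1qa -0.39 to 0.71, C1qb -0.41 to 0.89, C1qc -0.36 to 0.81, Lyz2 -0.15 to 0.03, H2-Aa -0.13 to 0.23, H2-Ab1 -0.04 to 0.47, Blk -0.06 to 0.05 and Lck -0.35 to 1.84. Leaving out 1 of 10 libraries moved the B cell median between -1.49 and -0.23 and gave Ptprc -0.36 to 0.07, Adgre1 -0.04 to 0.12, Csf1r -0.15 to 0.01, Cd163 -0.14 to 0.01, Mrc1 -0.12 to 0.07, C1qa -0.05 to 0.05, C1qb -0.01 to 0.10, C1qc -0.06 to 0.05, Lyz2 -0.12 to 0.01, H2-Aa -0.10 to 0.21, H2-Ab1 -0.13 to 0.21, Cd74 -0.09 to 0.23, Blk -0.06 to 0.08 and Cd4 -0.08 to 0.39. With library totals Adgre1 was 0.01. With sample quality weights the T cell median was -0.22, C1qa -0.04, C1qb -0.01, C1qc -0.08, H2-Aa -0.12, H2-Ab1 -0.14, Cd74 -0.11, Cd4 -0.03 and Lck -0.41. Without both marked libraries the T cell median was -0.19, Adgre1 0.04, C1qa -0.01, C1qc -0.01 and Lck -0.51. A filter of 1 CPM, which leaves Blk as the B cell gene tested, gave B cell medians of 0.00 (12 libraries) and -0.01 (10). Without HKII+/+ replicates 15 and 18 as well, the B cell median was 0.09, the T cell median 0.31, Ptprc 0.16, Fcgr1 -0.01, Cd79b 0.37, Cd22 0.13, Blk 0.06 and Lck 0.17. The highest library over the median library, in summed CPM, was 1.42 (macrophage) and 3.92 (T cell) on library totals, and 2.56, 9.28, 8.96 and 2.06 for macrophage, B cell, T cell and neutrophil genes without the member with the most counts. Where no cause is named, the cause was not tested. Depth limits Pax5, the CD3 genes, S100a8 and S100a9, which had at most 31 counts in a library.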

Other observations

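Other blood and immune lists gave no calls in either fit. Of 10 natural killer and cytotoxic genes, 0 passed the filter, and they summed to 0.748 to 1.45 CPM over the 12 libraries. Of 8 mast cell genes, 6 were tested. Mcpt4 and Cpa3, proteases of mast cell granules, were highest in HKII+/+ replicate 15 (2.503 and 1.502 CPM) and lowest in HKII+/- replicate 11 (0.0851 and 0.0425 CPM). The list as a whole was not low in replicate 11, where it summed to 12.7 CPM against 8.66 to 17.9 CPM in the others. Cma1 (1.28 CPM), Tpsb2 (1.79 CPM), Kit (5.74 CPM) and Hdc (3.74 CPM) lay inside the range of the others there. Fcer1a and Ms4a2 were at 0 CPM in it. Cma1 and Tpsb2 were highest in HKII+/- replicate 16. Of 5 platelet genes, 4 were tested. Pf4, a platelet chemokine that some tissue macrophages also express, was 27.5 CPM in HKII+/- replicate 11 and 19.7 CPM in HKII+/+ replicate 13, against 5.30 to 9.27 CPM in the unmarked libraries. Itga2b and Gp1bb were also highest in replicate 11. Ppbp went the other way, at 0.638 and 0.787 CPM in the marked libraries against 1.18 to 2.70 CPM in the unmarked ones. Gp9 was highest in HKII+/+ replicate 14. Of 13 further neutrophil genes listed, 3 were tested. Ltf, a protein of neutrophil granules that glands also secrete, had 854 counts (36.3 CPM) in HKII+/- replicate 11 and at most 7 counts elsewhere, while S100a9 had 0 counts there.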
